A study of Mus musculus with 59 samples.

Results

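BCL6 binding in the livers of fed mice was mapped in both Bcl6 fl/fl mice and C57BL/6 mice of the series, and the resulting peak lists were compared here site by site. The floxed list held 17454 peaks and the C57 list 15642 peaks, of 102931 peaks in the 7 lists analysed. A peak of one list was matched to a peak of the other when their centers lay within 200 bp on mm10, which gave 22236 distinct sites. Of these, 10860 (48.8%) were common to both lists, 6594 (29.7%) were floxed-only and 4782 (21.5%) were C57-only. These shares are the background against which every group of genes or sites below is read.

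The series is a chromatin immunoprecipitation sequencing (ChIP-seq) study of BCL6, PPARα and PPARδ in mouse liver. The floxed group, named BCL6-Fed-WT, consisted of 3 libraries from male Bcl6 fl/fl mice fed ad lib, which carried loxP sites in the Bcl6 gene but no Albumin-cre. They served as the controls of a hepatocyte knockout (Bcl6 fl/fl; Albumin-cre), whose single library shared their input. The C57 group, BCL6-Fed-C57, consisted of 3 libraries from male, ad lib fed WT mice, with an input of its own. Both groups are labelled strain C57BL/6, liver. The other lists set beside them came from WT mice of the same strain label: BCL6 after an overnight fast, and PPARα and PPARδ in the fed and the fasted state, 3 libraries each. Each deposited list pools the libraries of its group and gives positions only. Read depth, peak height and the spread between animals are therefore unknown, and no test between the genotypes was possible. Genotype, experiment, input and peak calling cannot be told apart in this comparison. Percentages below carry 95% Wilson intervals, and differences between percentages carry 95% Newcombe intervals. Both cover counting error over sites, which are not replicates of a genotype.

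BCL6 is a zinc finger repressor that recruits corepressor complexes containing SMRT, NCoR and HDAC3, and it is best known from germinal center B cells. In hepatocytes it occupies enhancers and promoters of lipid and ketone genes, many of which are also bound by PPARα, the nuclear receptor that activates fatty acid oxidation during fasting. The BCL6 element resembles that of the STAT factors, which act downstream of growth hormone in liver. Many genes with widely used promoters start within CpG islands, whereas many liver-specific genes start in CpG-poor DNA.

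The sites below show the element TTCCTAGAA, in capitals, on the plus strand of mm10 (its other strand reads TTCTAGGAA). For each class they are the promoter site and the site outside promoters whose exact element lay nearest to the peak center. The common promoter site lay 119 bp upstream of Rrn3, which encodes an RNA polymerase I initiation factor, at chr16:13780530-13780629.
Rrn3, common, promoter: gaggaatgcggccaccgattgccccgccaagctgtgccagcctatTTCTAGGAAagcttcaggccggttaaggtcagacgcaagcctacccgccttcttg
The common site outside promoters lay 27431 bp upstream of Larp1, at chr11:57981583-57981682, and all 5 other lists had a peak there.
Larp1, common, intergenic: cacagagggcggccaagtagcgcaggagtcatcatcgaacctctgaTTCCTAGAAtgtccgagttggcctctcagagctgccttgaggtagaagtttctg
The floxed-only promoter site lay 112 bp upstream of 1810037I17Rik, at chr3:122924235-122924334.
1810037I17Rik, floxed-only, promoter: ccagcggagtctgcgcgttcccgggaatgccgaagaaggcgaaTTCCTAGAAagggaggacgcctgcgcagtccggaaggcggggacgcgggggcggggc
The floxed-only site outside promoters lay in an intron of Ppa1, an inorganic pyrophosphatase gene, 580 bp downstream of its start, at chr10:61649151-61649250.
Ppa1, floxed-only, intron: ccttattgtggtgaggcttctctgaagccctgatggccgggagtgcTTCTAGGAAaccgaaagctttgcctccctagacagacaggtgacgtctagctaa
The C57-only promoter site lay 151 bp upstream of Zfp719, at chr7:43579385-43579484.
Zfp719, C57-only, promoter: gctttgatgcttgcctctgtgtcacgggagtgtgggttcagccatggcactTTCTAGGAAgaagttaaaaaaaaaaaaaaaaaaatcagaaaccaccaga
The C57-only site outside promoters lay in an intron of Kmt2c, a histone H3K4 methyltransferase gene, 80160 bp downstream of its start, at chr5:25418573-25418672.
Kmt2c, C57-only, intron: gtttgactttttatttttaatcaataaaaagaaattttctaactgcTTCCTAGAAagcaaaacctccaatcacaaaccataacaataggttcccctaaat

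Most peaks of either list had a counterpart in the other. The common sites made up 62.2% (61.5 to 62.9) of the floxed list and 69.4% (68.7 to 70.1) of the C57 list. Their centers lay close together, with a median gap of 21.0 bp and a 90th percentile of 57 bp, and 9352 of the 10860 pairs (86.1%) were at most 50 bp apart. Only 183 pairs (1.69%) were more than 100 bp apart. Few list-only sites were near misses: the nearest peak of the other list was more than 200 and at most 400 bp away for 68 floxed-only and 67 C57-only sites. The median distance to the nearest peak of the other list was 14504 bp for floxed-only and 16234 bp for C57-only sites. Common sites more often had a common site nearby. Another lay within 10000 bp of 45.2% of them, against 34.0% of floxed-only and 27.9% of C57-only sites with a common site within that distance. How far list-only sites clustered among themselves was not measured.

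**Figure D1:**
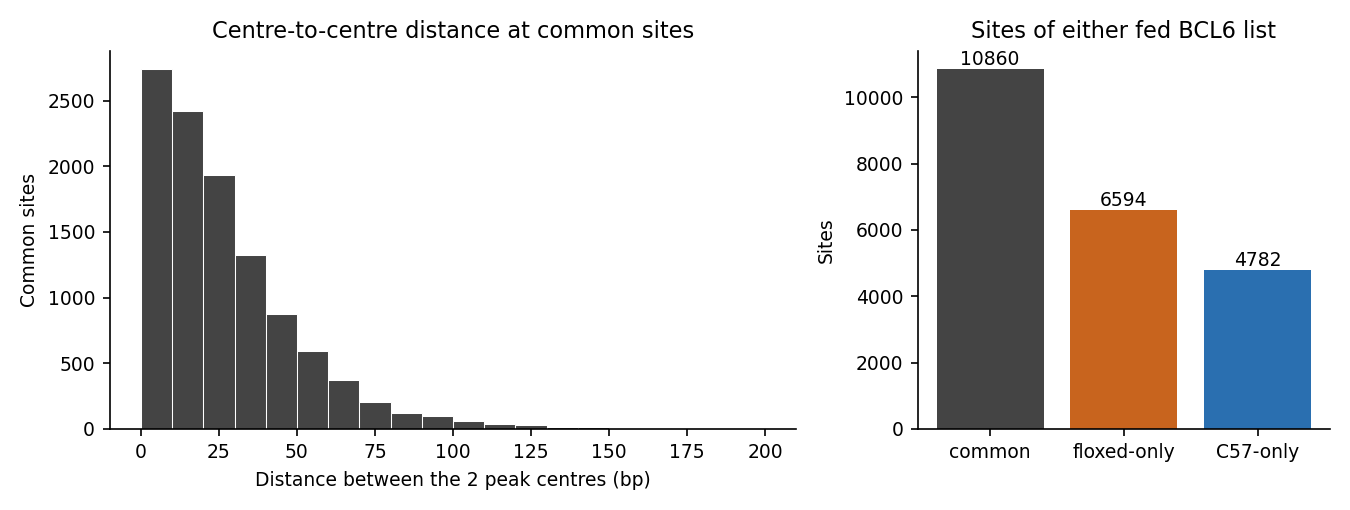
Left, number of common sites (y axis) by distance between the centers of the matched floxed and C57 peaks in bp (x axis, bins of 10 bp). Right, number of sites in each class. Gaps cluster near 0, with a median of 21.0 bp, and the common class is the largest with 10860 sites.

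Floxed-only binding lay at promoters far more often than common or C57-only binding. A site was placed in a promoter when its center fell within the 1000 bp before or the 100 bp after a RefSeq transcription start site (TSS). By this definition 522 common sites (4.81%, 4.42 to 5.23), 748 floxed-only sites (11.3%, 10.6 to 12.1) and 164 C57-only sites (3.43%, 2.95 to 3.98) were in promoters, against 1.27% of positions on a regular grid over the genome. The floxed-only share exceeded the common share by 6.54 percentage points (5.68 to 7.41) and the C57-only share by 7.91 points (6.99 to 8.84). The C57-only share lay below the common share, with a difference of -1.38 points (-2.01 to -0.701). Read the other way, floxed-only sites were 52.2% (49.6 to 54.7) of the 1434 promoter sites but 28.1% (27.5 to 28.7) of sites outside promoters.

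The excess was concentrated at CpG-rich promoters, defined by a GC content of at least 50% and an observed over expected CpG ratio of at least 0.6 within 500 bp of the TSS. Of the promoter sites, 62.3% (58.8 to 65.7) were CpG-rich in the floxed-only class, 29.1% (25.4 to 33.2) in the common class and 30.5% (24.0 to 37.9) in the C57-only class, against 41.8% of all RefSeq TSS. The floxed-only share was 33.2 points (27.8 to 38.2) above the common share and 31.8 points (23.6 to 39.2) above the C57-only share. The C57-only and common shares differed by 1.37 points, with an interval from -6.31 to 9.68. Among the 668 CpG-rich promoter sites 466 (69.8%) were floxed-only and 152 (22.8%) common. Among the 766 CpG-poor promoter sites the order was turned, with 282 (36.8%) floxed-only and 370 (48.3%) common.

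Floxed-only promoter sites also sat closer to the start of transcription. Their centers were within 100 bp of the TSS at 41.7% of promoter sites, against 31.6% of common and 28.7% of C57-only promoter sites. Promoters with a TSS on the opposite strand within 1000 bp held 16.6% of floxed-only, 9.0% of common and 7.32% of C57-only promoter sites, against 14.2% of all TSS. Outside promoters, exons held 4.82% of floxed-only, 2.62% of common and 2.24% of C57-only sites. Introns held 48.2% of floxed-only and 48.3% of common sites, a difference of -0.117 points with an interval from -1.65 to 1.41. Introns held a larger share of C57-only sites, 53.2%. As a whole, the floxed list had 7.29% of its peaks in promoters, above the fed C57 list at 4.36% and the fasted BCL6 list at 5.0%. Its promoter share was below that of the fed PPARα list at 8.97% and of the fasted PPARα list at 15.2%.

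**Figure D2:**
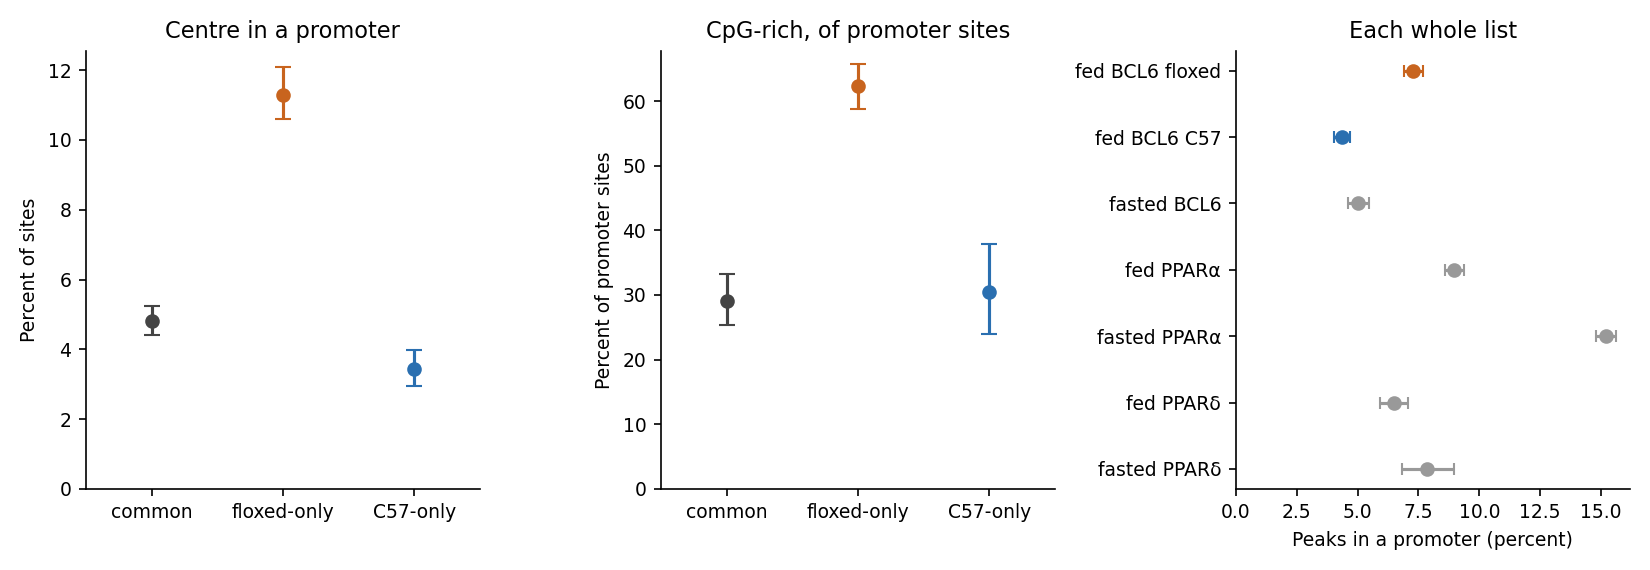
Share of sites in promoters and share of promoter sites that are CpG-rich by class, and share of peaks in promoters for each of the 7 lists, in percent with 95% Wilson intervals as error bars. The floxed-only class stands above the other classes in both shares, at 11.3% and 62.3%.

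Base composition separated the classes outside promoters as well. The GC content of the 200 bp around the center averaged 50.5% ± 8.63 (SD over 6594 sites) at floxed-only sites, 44.5% ± 6.07 at common sites and 42.6% ± 5.30 at C57-only sites, and 41.6% over the genome grid. Windows of at least 50% GC made up 54.1% (52.9 to 55.3) of floxed-only, 19.2% (18.5 to 20) of common and 7.82% (7.09 to 8.62) of C57-only sites. Outside promoters the same shares were 50.3%, 18.5% and 7.67%. The classes thus differed in base composition whether or not a promoter was near.

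The class of a site followed its GC content in steps. With sites split into 5 ranges of GC, chosen after the data were seen, floxed-only sites made up 15.1% of sites below 40% GC, 15.6% from 40 to 45%, 24.2% from 45 to 50%, 46.9% from 50 to 55% and 78.7% (77.0 to 80.4) at 55% and above. C57-only sites ran the other way, from 31.6% below 40% GC to 1.72% at 55% and above, where they numbered 40 of 2319. At 55% GC and above, floxed-only sites were 87.6% (84.6 to 90.1) of promoter sites and 76.0% (73.9 to 77.9) of the sites outside promoters.

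Within a GC range the promoter difference was mostly small. The floxed-only minus common difference in promoter share was -0.147 points (-1.38 to 1.49) below 40% GC, -0.350 (-1.63 to 1.22) from 40 to 45%, 0.0627 (-1.21 to 1.47) from 45 to 50% and 1.56 (-0.201 to 3.31) from 50 to 55%. It was 12.0 points (7.99 to 15.7) at 55% and above, where 26.6% of floxed-only and 14.6% of common sites were in promoters. Within GC ranges, a promoter difference beyond counting error was thus seen only at 55% and above. Floxed-only sites were also more often in that range, at 1826 of 6594 against 453 of 10860 common sites. The difference over all sites holds both. GC content moved with the class throughout, and its part in the promoter difference beyond these ranges was not tested. Repeats, as masked in the reference sequence, covered the center of 8.01% of floxed-only, 10.1% of common and 13.0% of C57-only sites, all well below the 36.5% of grid positions.

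**Figure D3:**
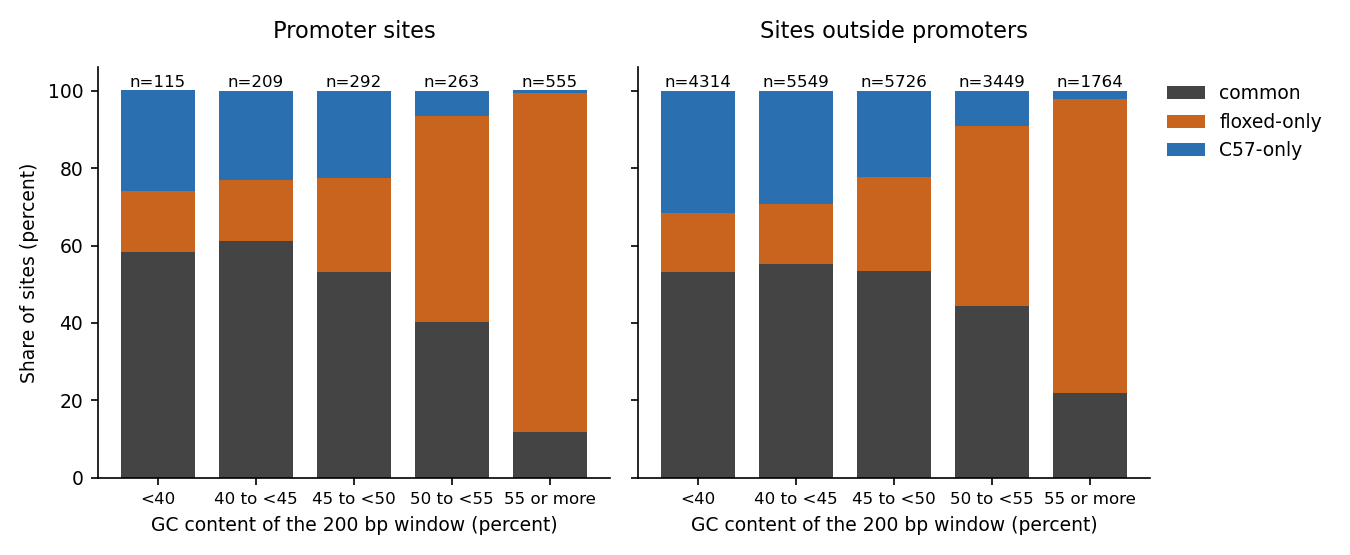
Share of common, floxed-only and C57-only sites (stacked bars, percent of sites) in 5 ranges of GC content of the 200 bp window, for promoter sites and for sites outside promoters. The floxed-only share grows with GC content in both panels and reaches 87.6% and 76.0% in the highest range.

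Common sites recurred in other cistromes more often than list-only sites. A peak of the fasted BCL6 list lay within 200 bp of 62.5% (61.6 to 63.4) of common sites, but of 14.5% (13.7 to 15.4) of floxed-only and 18.3% (17.2 to 19.4) of C57-only sites. Fed PPARα peaks lay at 78.7% of common, 50.3% of floxed-only and 50.4% of C57-only sites. Fed PPARδ peaks lay at 33.7%, 17.4% and 11.5%, in the same order. The common share exceeded either list-only share for all 5 lists, by 44.2 to 48.0 points for fasted BCL6. No other list had a peak at 8.74% of common sites, 30.7% of floxed-only sites and 33.5% of C57-only sites.

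The list-only classes differed less from each other than from the common class. The floxed-only minus C57-only difference was -3.77 points (-5.17 to -2.39) for fasted BCL6, -0.0370 (-1.90 to 1.82) for fed PPARα, 8.51 (6.66 to 10.4) for fasted PPARα and 5.98 (4.69 to 7.26) for fed PPARδ. These differences moved with GC content: among sites below 50% GC they were 0.0911, -7.72, -2.95 and 1.15 points. That for fasted PPARα changed sign and that for fasted BCL6 came close to 0. Within each of the 5 GC ranges the fasted BCL6 difference was negative, from -0.759 to -7.46 points. Its interval included 0 in every range below 55% GC. The other lists share the WT genotype with the C57 list, and the strain label with both. Of the 9613 fasted BCL6 peaks, 6771 (70.4%) lay at peaks of both fed lists, 957 (9.96%) at the floxed list only and 885 (9.21%) at the C57 list only.

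At promoters floxed-only sites were seldom at fasted BCL6 peaks. Fasted BCL6 peaks lay at 60.0% (55.7 to 64.1) of common, 27.4% (21.2 to 34.7) of C57-only and 7.75% (6.05 to 9.89) of floxed-only promoter sites. At CpG-rich promoters they lay at 77 of 152 common (50.7%), 6 of 50 C57-only (12.0%) and 20 of 466 floxed-only sites (4.29%, 2.80 to 6.54). Fasted PPARα peaks, by contrast, lay at 60.3% (55.8 to 64.6) of the floxed-only CpG-rich promoter sites, close to the 61.8% (53.9 to 69.2) of the common ones, and at 34.0% (22.4 to 47.8) of the C57-only ones. Fed PPARα peaks lay at 41.0% of the floxed-only and 57.9% of the common ones, and fed PPARδ peaks at 9.01% and 19.7%. The floxed-only CpG-rich promoter sites were thus mostly absent from the fasted BCL6 list while most of them coincided with fasted PPARα peaks. These 2 lists differ in size, with 9613 and 29085 peaks. They also differ in the CpG-rich share of their promoter peaks, 26.2% for fasted BCL6 and 67.9% for fasted PPARα.

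The BCL6 element was found less often in C57-only than in common or floxed-only sites. With TTCCTAGAA searched on both strands in the central 50 bp, allowing 1 mismatch, 5.92% (5.49 to 6.38) of common, 5.63% (5.10 to 6.21) of floxed-only and 4.2% (3.67 to 4.81) of C57-only sites held it. Windows of the same length held it in 1.69%, 1.62% and 1.55% when placed 1000 bp away from these sites, in 1.58% on the genome grid and in 1.38% when spaced over all RefSeq promoters. The floxed-only share differed from the common share by -0.294 points (-0.997 to 0.429) and from the C57-only share by 1.42 points (0.617 to 2.21). Within the 5 GC ranges the C57-only minus common difference ran from -1.13 to -3.47 points. Its interval included 0 below 40% GC and at 55% and above. From 40 to 45% GC the floxed-only share exceeded the common share by 2.44 points (0.658 to 4.50), and in the other ranges that interval included 0. With the search widened to the whole 200 bp, the floxed-only minus common difference was -2.15 points, beyond counting error. The exact element occurred within 200 bp in 263 common (2.42%), 145 floxed-only (2.20%) and 61 C57-only sites (1.28%). The STAT-like palindrome TTCNNNGAA, which the exact BCL6 element matches, was in the central 50 bp of 4.94%, 4.52% and 3.99% of sites, with 1.73% on the grid and 1.31% in promoter windows.

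Some elements of liver-enriched factors were more frequent in common than in floxed-only sites over all sites, without regard to GC content. The C/EBP element TTGCGCAA, with 1 mismatch, was in 4.52% of common, 2.73% of floxed-only and 3.26% of C57-only sites (0.527% of grid and 0.681% of promoter windows), but with no mismatch the floxed-only minus common difference was 0.0531 points. With 1 mismatch that difference ran from -2.61 to -0.462 points within the 5 GC ranges. Its interval left out 0 below 40% GC and from 45 to 50%, and included 0 in the others. The HNF6 element TATTGAT was in 5.41%, 3.18% and 3.76% (0.774% and 0.391%). Its floxed-only minus common difference was -2.23 points (-2.82 to -1.62) over all sites, but within the 5 GC ranges it ran from -0.554 to 0.286 points, with every interval including 0. The C57-only minus common difference for HNF6 was -5.01, -1.82 and -1.38 points in the 3 ranges below 50% GC, with intervals leaving out 0. In the ranges above, its intervals included 0. The HNF4 element CAAAGTCCA, with 1 mismatch, was in 5.86%, 4.29% and 5.86% (1.35% and 1.28%). Its floxed-only minus common difference ran from -1.64 to -0.137 points within the GC ranges, with an interval leaving out 0 only from 45 to 50%. The element DR1, a direct repeat of AGGTCA with a 1-base spacer to which PPAR and its partner RXR bind, was searched with 2 mismatches and was in 3.07%, 2.93% and 2.78% (0.423% and 0.533%). The forkhead element TGTTTAC was in 3.31%, 2.97% and 2.89% (0.633% and 0.574%). For DR1 and the forkhead element the intervals of the differences between classes included 0 over all sites. At promoter sites the forkhead difference, floxed-only minus C57-only, was -3.27 points (-7.78 to -0.613). The floxed-only minus C57-only difference for HNF6 was -0.579 (-1.28 to 0.0970) over all sites and 1.72 points among sites below 50% GC.

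Over all sites, elements common in CpG islands were rare but more frequent in floxed-only sites than in the other classes. The GC box GGGCGGG was in 90 floxed-only sites (1.36%), 26 common sites (0.239%) and 6 C57-only sites (0.125%), against 0.238% of grid and 2.31% of promoter windows. The core AGGGGGCGC of the CTCF element, with 1 mismatch, was in 0.622%, 0.0829% and 0.0836% in the same order (0.251% of grid and 1.47% of promoter windows). Windows 1000 bp away from the sites held the CTCF core in 0.569%, 0.341% and 0.272%, and the GC box in 0.720%, 0.364% and 0.439%. Floxed-only sites thus held the CTCF core about as often as their flanks, and the other classes less often than theirs. The ETS element CCGGAAG was in 0.485%, 0.184% and 0.105% (0.144% and 0.812%). The E-box CACGTG was in 1.18%, 0.672% and 0.690% (0.427% and 0.810%). All 4 elements are GC-rich, and among sites below 50% GC the floxed-only minus common difference was -0.0491 points for the ETS element and -0.00231 for the CTCF core. One of the GC boxes lay in the CpG-rich promoter of B330016D10Rik at chr4:141545159-141545258, and is shown because that promoter held 2 floxed-only sites.
B330016D10Rik, floxed-only, promoter, GC box in capitals: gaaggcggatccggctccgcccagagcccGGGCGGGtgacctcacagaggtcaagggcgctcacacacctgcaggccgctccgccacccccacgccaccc

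**Figure D4:**
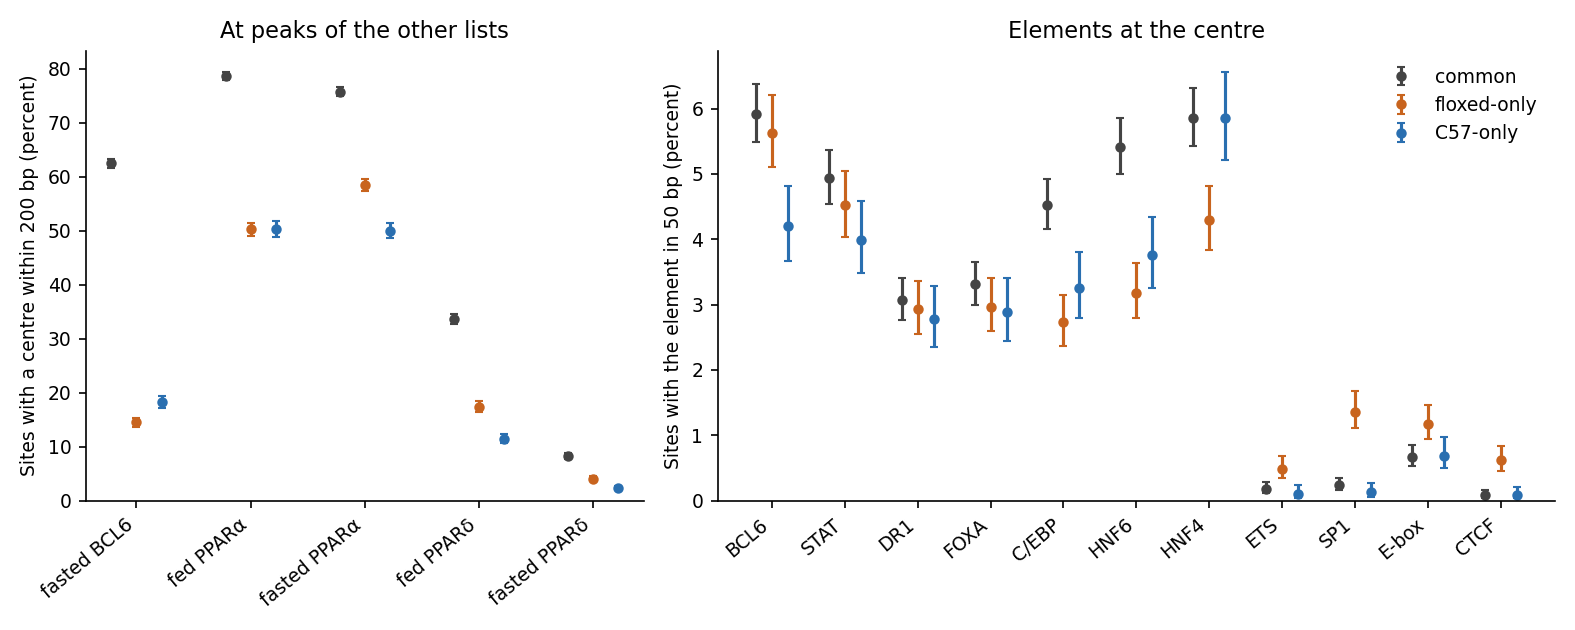
Share of sites (percent, 95% Wilson intervals as error bars) of each class with a peak of each of 5 other lists within 200 bp, and share with each sequence element in the central 50 bp. Common sites are highest for every other list, at 62.5% for fasted BCL6, and floxed-only sites are highest for the GC box, at 1.36%.

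Bcl6 itself, which represses its own transcription in B cells, was among the densely bound genes in both lists. A site was counted for the coding gene whose TSS lay nearest, up to 1 Mb away. Bcl6 received 13 common, 3 floxed-only and 3 C57-only sites. A common site 246 bp downstream of its TSS lay in an exon and held the exact element at chr16:23988578-23988607, and none of the other lists had a peak there.
Bcl6, common, exon: gtgtccggcctTTCCTAGAAacttcttgca
A common site in its intron, 1708 bp downstream of a different, nearer Bcl6 TSS, was also at fasted BCL6 and at both PPARα lists. A floxed-only site lay in an exon 9013 bp downstream of that second TSS, at chr16:23972169-23972371, and was at both PPARα lists and the fed PPARδ list. The remaining 16 sites lay upstream, from 7736 to 165075 bp from the first TSS, and 11 of them were common.

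Across the genome 7556 of 21000 genes received a site. Of these, 4818 had a common site, 1468 had floxed-only sites alone, 925 had C57-only sites alone and 1167 had all 3 classes. The genes with the most common sites were Rora, a nuclear receptor gene of the clock, with 21, Adgrl2 with 20, Irs2, the insulin receptor substrate, with 20, Myc with 19 and Tbl1xr1, a subunit of the SMRT/NCoR complexes, with 19. All 5 also carried list-only sites, for example 9 floxed-only and 2 C57-only sites at Irs2.

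Some genes received sites mainly from one list. The highest floxed-only counts were at Bcor, a BCL6 corepressor, with 14 floxed-only beside 16 common sites and 1 C57-only site, and at Septin9, a cytoskeletal GTPase, with 11 floxed-only sites and no other. Gadd45g and Rreb1 followed with 10 each and Gse1 with 9, and Gse1 had a single common site. The highest C57-only counts were at Adgrl2 with 13, and at Ets1, Lpp, Nfib and Nrp1 with 10 each. Ets1, a lymphoid and endothelial transcription factor gene, had 3 common and no floxed-only sites. These genes are the ends of rankings over 7556 genes, and their counts carry no test.

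Few genes had more than 1 promoter site of the same class. The 748 floxed-only promoter sites lay at 733 genes, the 522 common ones at 507 and the 164 C57-only ones at 164. Repeated sites were thus not particular to the floxed-only class, and the C57-only sites were too few to compare. Prkag2, which encodes a regulatory subunit of AMP-activated kinase, had 3 floxed-only sites, at 663 and 127 bp upstream of one TSS and 501 bp upstream of another, all CpG-rich and all at both PPARα lists. Gata4, F2, the prothrombin gene, and C4b, a complement gene, had 2 each. Insr, the insulin receptor gene, had 2 in its CpG-rich promoter, 907 bp upstream and 24 bp downstream of the TSS (chr8:3280423-3280625 and chr8:3279492-3279694), and no other list had a peak at either. Its 7 common sites lay 34608 bp upstream and 22875 to 63733 bp downstream. Stat5a and Nr1h4, the gene of the bile acid receptor FXR, also had 2 floxed-only promoter sites each.

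A few promoters held a floxed-only and a C57-only site just beyond the matching distance. In all 66 such pairs had centers more than 200 and at most 400 bp apart, 7 of them with a center in a promoter. The pairs lay 356 bp apart at Abcb11, the bile salt export pump, 260 bp apart at Acot12, an acyl-CoA thioesterase, and 331 bp apart at Cyp4f15, a fatty acid omega-hydroxylase. At these 3 promoters the floxed-only site was the one nearer the TSS, at 69, 151 and 68 bp upstream, and fed and fasted PPARα peaks lay at the floxed-only sites and at none of the C57-only sites.

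**Figure D5:**
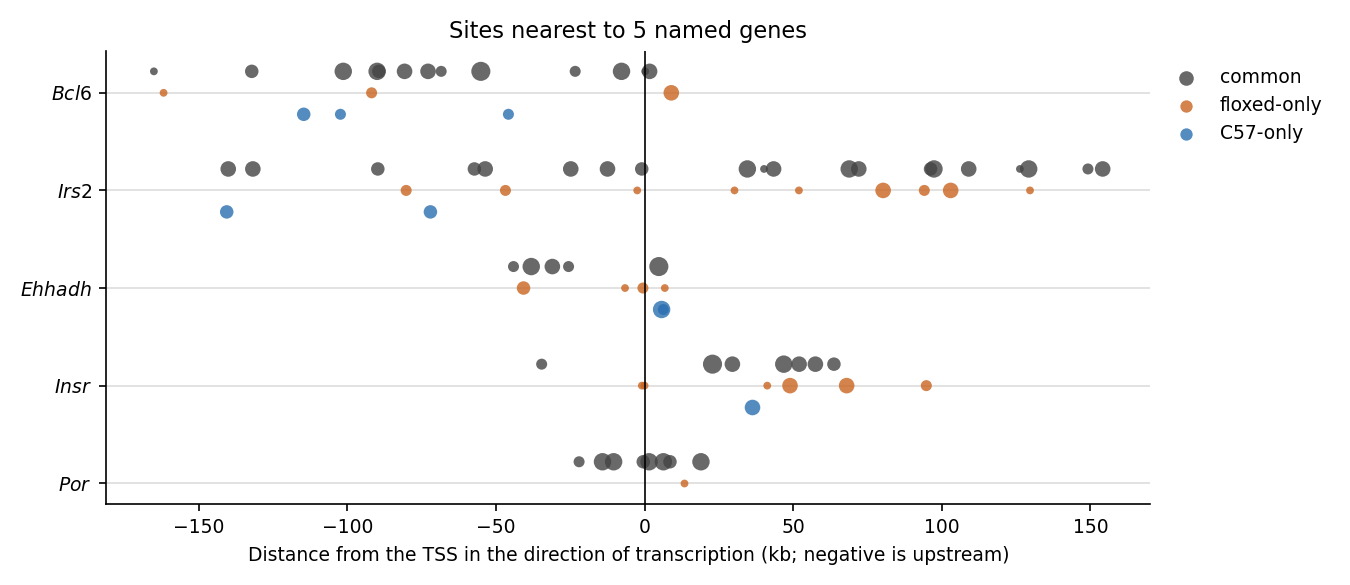
Sites near Bcl6, Irs2, Ehhadh, Insr and Por by signed distance from the nearest TSS of the gene in the direction of transcription (x axis), one row per class, with point size growing with the number of other lists that had a peak there. The pair of floxed-only points at the Insr TSS is small, since no other list had a peak there, and the common Ehhadh point 4820 bp downstream of its TSS is large, with all 5.

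Fatty acid oxidation genes were bound in both lists, with common sites the largest class in each group, as they were over all sites. In the gene groups below, counts over all sites are read against the 48.8% common, 29.7% floxed-only and 21.5% C57-only shares of all sites. Counts of promoter sites are read against the 52.2% floxed-only, 36.4% common and 11.4% C57-only shares of all promoter sites (69.8%, 22.8% and 7.49% at CpG-rich promoters), and groups with this few promoter sites are described without a claim of excess. Mitochondrial β-oxidation genes had 53 sites, of which 31 were common (58.5%, 45.1 to 70.7), 14 floxed-only (26.4%, 16.4 to 39.6) and 8 C57-only. In their promoters 6 sites were floxed-only, 2 common and none C57-only. The floxed-only ones included Acadl, the long-chain acyl-CoA dehydrogenase, 141 bp upstream of the TSS, Etfb, an electron transfer flavoprotein subunit, 63 bp upstream, Echs1, an enoyl-CoA hydratase, 146 bp upstream, and Eci1, an enoyl-CoA isomerase, 98 bp upstream. No other list had a peak at the Acadl site, whereas 4 lists had one at Etfb. The carnitine shuttle had 9 floxed-only of 25 sites (36.0%, 20.2 to 55.5), one of them in the promoter of the carnitine transporter Slc22a5.

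Peroxisomal β-oxidation genes had 85 sites, of which 28 were floxed-only (32.9%, 23.9 to 43.5) and 41 common (48.2%, 37.9 to 58.7), near the background. Ehhadh, the peroxisomal bifunctional enzyme, had 5 common, 4 floxed-only and 2 C57-only sites. The only site in its own promoter was floxed-only, 532 bp upstream of the TSS at chr16:21788265-21788467, and was at the fasted BCL6 list. It is shown with the common distal site 25553 bp upstream at chr16:21813263-21813505. The windows are chr16:21788316-21788415 and chr16:21813337-21813436, each holding the element with 1 mismatch in capitals. The promoter window also holds the exact element, in lower case, upstream of the marked one as printed.
Ehhadh, floxed-only, promoter: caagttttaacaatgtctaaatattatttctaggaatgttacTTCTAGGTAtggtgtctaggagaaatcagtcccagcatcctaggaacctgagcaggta
Ehhadh, common, intergenic: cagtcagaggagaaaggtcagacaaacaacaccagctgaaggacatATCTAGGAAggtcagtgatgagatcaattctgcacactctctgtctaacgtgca
Acyl-CoA thioesterase genes had 18 common and 6 floxed-only of 27 sites (22.2%), and genes of fatty acid uptake and activation 39 common and 16 floxed-only of 68 (23.5%). Genes of omega-oxidation had 22 common of 30 sites and 5 floxed-only (16.7%, 7.34 to 33.6).

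Ketone and fasting hormone genes were bound mainly at common sites, at 68.2% (47.3 to 83.6) and 76.5% (52.7 to 90.4). The interval for the ketone genes included the 48.8% of all sites. Ketone body genes had 15 common of 22 sites and 3 floxed-only (13.6%, 4.75 to 33.3). Both of their promoter sites were common. Bdh1, a dehydrogenase that interconverts the main ketone bodies, had 5 common and 2 floxed-only sites. Genes of fasting hormones had 13 common of 17 sites, with 2 common sites and no other at Fgf21. Genes of lipid droplets and lipases had 14 floxed-only of 31 sites (45.2%, 29.2 to 62.2, an interval that included the 29.7% of all sites). Their 3 promoter sites, too few to set against the 52.2% of all promoter sites, were floxed-only, at Plin2 and Plin5, which encode lipid droplet coat proteins, 8 and 14 bp upstream of the TSS, and at Fitm2, 28 bp downstream. Lipogenesis genes had 20 floxed-only of 66 sites (30.3%) and cholesterol genes 13 of 43 (30.2%), close to the background.

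Glucose and bile acid genes had common shares above the 48.8% of all sites, at 64.5% (55.6 to 72.4) and 69.4% (55.5 to 80.5). Glucose metabolism genes had 78 common, 33 floxed-only (27.3%, 20.1 to 35.8) and 10 C57-only of 121 sites (8.26%, 4.55 to 14.5), where C57-only sites made up 21.5% of all sites. Their promoters held 6 common and 6 floxed-only sites. Besides the Insr pair, floxed-only promoter sites included those at Gys2, the liver glycogen synthase gene, 80 bp downstream, at Pcx, the pyruvate carboxylase gene, 26 bp upstream, and at Pdk4, an inhibitor of pyruvate oxidation, 365 bp upstream. Pck1, the gluconeogenic enzyme, had 6 common sites and no list-only site. Bile acid genes had 34 common of 49 sites and 6 floxed-only (12.2%, 5.73 to 24.2), and 5 of their 7 promoter sites were common, among them those of Cyp7a1 and Cyp8b1, enzymes of bile acid synthesis.

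Clock genes were bound at shares near the background. They had 97 sites, of which 47 were common, 32 floxed-only (33.0%, 24.4 to 42.8) and 18 C57-only, and their 5 promoter sites were floxed-only, where 52.2% of all promoter sites were. These lay at Arntl, 44 bp downstream of the TSS, at Dbp, 74 bp upstream, at Nr1d1 and Nr1d2, which encode the repressors REV-ERBα and REV-ERBβ, 268 and 447 bp upstream, and at Per3, 592 bp upstream. The fasted BCL6 list had a peak at the Nr1d1 and Per3 sites. No other list had one at Dbp or Nr1d2.

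Signaling and transcription factor genes were bound mostly at common sites, with exceptions. The growth hormone and STAT pathway had 67 common, 22 floxed-only (22.2%, 15.2 to 31.4) and 10 C57-only of 99 sites. Its target Igf1 had 16 common sites, and Socs2, a feedback inhibitor of growth hormone signaling, had 8 common sites and 1 floxed-only. The STAT5 genes went apart: Stat5a had 4 floxed-only sites and no other, while Stat5b had 4 common sites and 1 C57-only site, which lay in its promoter 78 bp upstream of the TSS. BCL6 targets known from lymphocytes had 96 sites, 62 of them common and 20 floxed-only (20.8%, 13.9 to 30.0), and 19 of the common ones were at Myc. Corepressor genes had 30 floxed-only of 84 sites (35.7%, 26.3 to 46.4). Hepatocyte transcription factor genes had 29 of 111 (26.1%). Nuclear receptor genes had 22 floxed-only of 55 sites (40.0%, 28.1 to 53.2). Ppara had 6 common and 6 floxed-only sites, whereas Ppard had 2 floxed-only, 1 C57-only and no common site.

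Marker genes of hepatocytes were bound in both lists. Of 10 hepatocyte marker genes 9 received sites, 74 in all, with 42 common, 17 floxed-only (23.0%) and 15 C57-only (20.3%). Their promoters held 3 common, 3 floxed-only and 3 C57-only sites. The C57-only ones lay at Alb, the albumin gene, 19 bp upstream of the TSS, at Cps1, 141 bp upstream, and at Fgb, 991 bp upstream. The floxed-only ones lay at Apob, 159 bp upstream, at Hp, 705 bp upstream, and at Trf. The common ones lay at Fgb, 72 bp upstream, at Hp, 112 bp upstream, and at Ttr. None of 8 Kupffer cell markers received a site. Sites were received by 5 of 6 endothelial markers (13 sites), 1 of 6 stellate cell markers (3 sites) and 2 of 8 lymphocyte markers (2 sites). Over all genes, 7556 of 21000 (36.0%) received a site, and most endothelial markers were bound as most hepatocyte markers were. Ribosomal protein genes had 20 floxed-only of 60 sites (33.3%, 22.7 to 45.9), subunits of respiratory complex I 6 of 18 (33.3%) and olfactory receptor genes, which are silent in liver, 8 of 43 (18.6%). Common sites made up 50.0% (37.7 to 62.3), 55.6% (33.7 to 75.4) and 60.5% (45.6 to 73.6) in these groups. The olfactory receptor share was thus as large as those of several metabolic groups.

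The regions that the study probed by ChIP with quantitative PCR lay almost without exception at common sites, which were 48.8% of all sites. The paper describes these regions as shared BCL6-PPARα sites. They were thus picked as bound, and their class is no independent check of the lists. Of 15 such regions 14 were at a common site, with gaps between centers of up to 64 bp, at Fads2. The exception was an intronic region of Cd36, a fatty acid transporter, whose site at chr5:17876766-17876982 was C57-only although all 5 other lists had a peak there. The genes of these regions and of the browser views had 54 common of 80 sites and 17 floxed-only (21.2%, 13.7 to 31.4). Por, the electron donor of cytochrome P450 enzymes, had 8 common sites and 1 floxed-only, which lay in an intron at chr5:135702227-135702429 and held the element with 1 mismatch. It is shown beside a common site of Fads2, a fatty acid desaturase, at chr19:10096487-10096586, which held the exact element. The Por window is chr5:135702278-135702377.
Por, floxed-only, intron: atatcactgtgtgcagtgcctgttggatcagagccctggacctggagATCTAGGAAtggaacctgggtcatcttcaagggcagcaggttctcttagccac
Fads2, common, intron: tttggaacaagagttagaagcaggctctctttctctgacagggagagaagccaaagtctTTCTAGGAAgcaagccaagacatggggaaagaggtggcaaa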

How the data were processed

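Peak lists were used as the authors deposited them, with the 3 columns chromosome, start and end on mm10. Positions are the only unit (other than counts or signal), and no depth or height is given. Per the methods and labels, the authors aligned reads with Bowtie, reported uniquely placed reads and let no start position count more than 1 read. With HOMER the authors proposed peaks from the merged libraries over input, and by the authors' DESeq2 step retained those enriched at least 2-fold with an adjusted significance (FDR) below 0.05. The methods describe calling over input, and the study also called peaks over the knockout ChIP. Which version was deposited for the floxed list is not given in the sources used here. Centers were matched 1 to 1 within 200 bp with Python 3.11.15, NumPy 2.4.6 and pandas 2.3.3, after checks on made-up data. TSS and sequence came from RefSeq on GRCm38 (mm10). Genes were named by rule: Bcl6, members of 28 fixed lists, the 5 genes with most sites of each class, genes of the study's PCR regions and browser views, and up to 5 genes with several list-only promoter sites. Members and lists were chosen with earlier results of these data known. The common class depends on the 200 bp limit, and pooled lists hide animal variation. Alternatives for the matching distance, promoter bounds, CpG criteria, motif window and mismatches, repeat masking and GC content were run. Results on some genes are not reported here.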

Additional observations from a re-analysis of the deposited data

How the results depend on the processing

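Of 517 recomputed values, 477 were counted as unchanged. A difference counted so when it kept its direction and whether its interval included 0. It also counted so, in either direction, when both intervals included 0. A share counted so when it stayed within its main counting interval. For 17 the interval came to include 0, and for 12 it came to leave 0 out. Another 9 changed direction with at least 1 of the intervals leaving out 0, and 2 shares moved beyond their counting interval. Matching within 100 bp lowered the common share to 61.2% of the floxed list and 68.3% of the C57 list. Restricting to sites below 50% GC, an alternative chosen after seeing the data, took the promoter difference to 0.0413 points (floxed-only minus common) and 0.765 points (floxed-only minus C57-only). It took the floxed-only minus C57-only differences at other lists to 0.0911 (fasted BCL6), -7.72 (fed PPARα), -2.95 (fasted PPARα), 1.15 (fed PPARδ) and 0.0609 points (fasted PPARδ). The CpG-rich differences stayed above 0, at 19.4 (9.74 to 29.2) and 13.6 points (1.99 to 24.8). The BCL6 element difference, floxed-only minus common, was -2.15 points over the whole 200 bp. Other element differences changed direction: over 200 bp, -1.18 points for the forkhead element (floxed-only minus C57-only) and -1.02 for AP-1 (floxed-only minus common), with no mismatch, 0.0531 for C/EBP (floxed-only minus common), and below 50% GC, 1.72 for HNF6 (floxed-only minus C57-only), -0.0491 and -0.0143 for ETS (against common and C57-only) and -0.00231 for CTCF (against common). Causes were not tested beyond these restrictions. No paired analysis was possible because each list pools its replicates, and neither leaving out a replicate nor a stricter peak threshold could be run on positions alone. Unknown depth limits every absence: a site missing from a list is not shown to be unbound.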

Other observations

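The class of a site varied between chromosomes. Floxed-only sites made up 38.3% of the 1334 sites on chromosome 11, 35.2% of the 810 on chromosome 17 and 33.5% of the 1449 on chromosome 5, against 22.9% of the 1316 on chromosome 3. C57-only sites ranged from 17.7% on chromosome 11 to 25.4% on chromosome 6 among the autosomes. The Y chromosome held 2 floxed-only and 2 C57-only sites and no common site. Of the floxed-only ones, 1 lay in an intron of Kdm5d, a histone demethylase gene, and 1 in an exon near Uty. These shares are descriptions without a test.

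Floxed-only and C57-only sites were rarely shared by every other list. All 5 other lists had a peak at 50 floxed-only sites (0.758%) and 32 C57-only sites (0.669%), against 634 common sites (5.84%). The Cd36 sites 35425 bp upstream of the TSS and in its intron were among the C57-only sites of this kind.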
